A study of Mus musculus with 12 samples.

Results

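Acsl1, Acadvl, Acadl, Acadm, Hadha, Hadhb and Acaa2 encode enzymes that activate long-chain fatty acids and break them down in the mitochondrial matrix. These 7 genes were chosen by name, with earlier results of these data known, and all 7 were among the 15223 genes of the deposited tables. RNA had been sequenced from c-Kit(+) lineage cells of hearts of C57BL6 mice carrying c-KitCreERT2 and the mTeG reporter, aged 8 weeks and given 0.5 mg of tamoxifen a day intraperitoneally for 14 days, so that cells with Cre expressed from the c-Kit gene carried eGFP. All c-Kit groups shared this genotype and labelling. Cells were taken 1 day before myocardial infarction (pre-MI, n = 3), 1 day after it (day 1, n = 2), or 12 days after it from mice given vehicle (n = 3) or Sfrp2 (n = 3) 2 days after the infarction. Sfrp2 is a secreted Frizzled-related protein that modulates Wnt signalling. A single library of cardiomyocytes from sham mice had no replicate and entered no test. The labels call the day 1 libraries vehicle, while treatment is stated to start later. Whether each library came from its own animal is not stated, so a p-value here measures the spread between libraries, which may be technical.

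Mitochondrial beta-oxidation shortens an acyl-CoA by repeated cycles of dehydrogenation, hydration, a second dehydrogenation and thiolytic cleavage, and feeds acetyl-CoA into the citric acid cycle. Acyl-CoA synthetases such as Acsl1 first attach coenzyme A, and the carnitine shuttle carries the acyl group into the matrix. The adult heart takes most of its energy from this pathway, and its genes are well-known targets of the nuclear receptor PPAR-alpha, of estrogen-related receptors and of their coactivator PGC-1-alpha. In bulk RNA such as this, fewer cells of a type and less RNA per cell cannot be told apart.

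The genes for the alpha and beta subunits of the trifunctional protein, Hadha and Hadhb, lie head to head on mouse chromosome 5. Their RefSeq starts on GRCm38.p6 are 273 bases apart, and promoter windows of 300 bases, from 250 before each start to 50 after it, share 228 bases. The windows are shown because Hadha was called lower in Sfrp2 cells and Hadhb was not, a difference between the genes that was not tested. Hadha is at chr5:30154931-30155230 on the minus strand and Hadhb at chr5:30155003-30155302 on the plus strand, and capitals mark the 50 bases after the start.
Hadha: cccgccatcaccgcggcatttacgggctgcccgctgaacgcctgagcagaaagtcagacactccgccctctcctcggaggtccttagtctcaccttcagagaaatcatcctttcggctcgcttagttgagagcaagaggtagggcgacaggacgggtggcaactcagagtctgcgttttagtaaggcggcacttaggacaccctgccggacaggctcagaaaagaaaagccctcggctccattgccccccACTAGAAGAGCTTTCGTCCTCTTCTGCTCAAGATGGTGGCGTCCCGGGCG
Hadhb: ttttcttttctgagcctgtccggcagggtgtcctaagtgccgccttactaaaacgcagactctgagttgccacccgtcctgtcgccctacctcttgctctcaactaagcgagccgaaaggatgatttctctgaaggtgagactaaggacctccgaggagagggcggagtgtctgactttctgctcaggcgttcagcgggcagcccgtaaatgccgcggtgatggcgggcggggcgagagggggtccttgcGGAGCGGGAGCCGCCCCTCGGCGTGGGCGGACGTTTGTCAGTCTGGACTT

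AGGTCA, the core motif that nuclear receptors of the PPAR and estrogen-related receptor families bind, was searched on both strands in the RefSeq windows of 6 of the enzymes, 7 windows in all since Acsl1 has more than 1. It was found for Acadm and Acadvl, and in 16.3% of the 32851 mouse windows. A direct repeat of the motif with 1 base between the copies was in 0.0396% of all windows, and TCAAGGTCA, the estrogen-related receptor site, which contains the motif, in 0.423%; neither was in a window of the enzymes. The windows of Acadm, at chr3:153944594-153944893 on the minus strand, and Acadvl, at chr11:70015379-70015678 on the minus strand, are given with the match in capitals. The match begins 249 bases before the start of Acadm, on the opposite strand, and 87 bases before that of Acadvl.
Acadm: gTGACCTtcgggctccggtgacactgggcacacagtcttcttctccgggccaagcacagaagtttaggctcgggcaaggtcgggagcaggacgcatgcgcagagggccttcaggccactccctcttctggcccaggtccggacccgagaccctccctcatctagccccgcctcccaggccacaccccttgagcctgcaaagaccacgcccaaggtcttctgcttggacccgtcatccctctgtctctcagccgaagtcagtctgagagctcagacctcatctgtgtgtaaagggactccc
Acadvl: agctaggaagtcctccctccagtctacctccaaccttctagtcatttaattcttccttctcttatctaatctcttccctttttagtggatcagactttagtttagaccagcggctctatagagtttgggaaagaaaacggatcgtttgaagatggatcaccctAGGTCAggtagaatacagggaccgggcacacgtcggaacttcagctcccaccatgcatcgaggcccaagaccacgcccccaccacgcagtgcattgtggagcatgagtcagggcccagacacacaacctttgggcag

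The enzymes rested on few reads. Recovered reads over the listed genes numbered 3462396 to 3570993 in the pre-MI libraries, 1793826 and 2085161 at day 1, 200641 to 2349774 in vehicle and 1159703 to 2683841 in Sfrp2 libraries. Mitochondrially encoded genes took 94.5% to 97.2% of the pre-MI reads and 59.7% to 88.5% of those at day 1 and in the Sfrp2 group. Vehicle replicate 3 stood apart, with 3.87% of its reads on those genes. The 7 enzymes together had 117 to 170 reads in a pre-MI library, 70 and 102 at day 1, 51 to 143 in vehicle and 90 to 175 in Sfrp2 libraries. Of the reads outside mitochondrially encoded genes and genes above 1% of reads, that was 0.0771% to 0.126% in pre-MI, 0.0497% and 0.0509% at day 1, 0.0438% to 0.0538% in vehicle and 0.0409% to 0.0462% in Sfrp2 libraries. Reads on sensory receptor genes, picked by name, were taken as a measure of background, an assumption that was not tested. Their median was 0 per exon kb in every pre-MI library and at least 0.175 in 7 of the 8 later ones, the exception being vehicle replicate 2.

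Markers were checked against the labels. Kit, which encodes the c-Kit receptor, had 4 to 19 reads in the pre-MI libraries and 3 to 29 in the later c-Kit ones. The summed level of the cardiomyocyte markers was 2559 to 4421 normalized counts in pre-MI libraries, 655 and 833 at day 1, 290 to 771 in vehicle and 376 to 582 in Sfrp2 libraries. The library labelled cardiomyocytes went against its label, with 264 for that list and 4.43 for Myh6, a cardiac myosin heavy chain that reached 227 to 439 in pre-MI c-Kit libraries. It held only 190259 reads, and its Myh6 value was 2 reads. Tnnt2 of the same list was at 104 there (47 reads), above every Sfrp2 library but below the 412 to 801 of the pre-MI libraries.

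The values below are normalized counts, which are reads divided by a size factor per library. Acsl1, at chr8:46471037-46536051 on the plus strand, encodes a long-chain acyl-CoA synthetase of the mitochondrial outer membrane. It read 15.1, 23.3 and 28.4 in pre-MI replicates 1 to 3, 17.7 and 14.9 at day 1, 28.0, 21.3 and 46.7 in vehicle, and 18.3, 22.6 and 20.0 in Sfrp2 libraries. The pre-MI range contained every Sfrp2 value, and vehicle replicate 3 was the highest of the c-Kit libraries. Its log2 difference from pre-MI was -0.09 ± 0.31 (SE) in the Sfrp2 group, with a 95% interval from -0.81 to 0.63 and a limma adjusted p of 0.821. It was -0.39 ± 0.33 at day 1 and 0.47 ± 0.50 in vehicle, neither past the threshold.

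The acyl-CoA dehydrogenases carry out the first step of each cycle, with overlapping preferences from very long to medium chains. Acadvl, the very long-chain enzyme of the inner membrane at chr11:70010183-70015411, read 17.98, 25.1 and 30.7 before MI. It read 8.07 and 11.5 at day 1, 8.57, 7.31 and 1.87 in vehicle, and 4.93, 5.65 and 6.13 in Sfrp2 libraries. Every later library was below every pre-MI library, and the Sfrp2 libraries were also below both day 1 libraries. Acadvl fell by 1.93 ± 0.32 on the log2 scale in the Sfrp2 group (limma adjusted p = 0.00121). It shares 1151 exon bases with Dvl2 on the opposite strand, and whether counting used strand is not given in the sources used here, so its reads and those of Dvl2 could not be fully separated.

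Acadl, the long-chain enzyme at chr1:66830839-66863277, read 28.4, 66.3 and 35.2 before MI, 19.4 and 11.5 at day 1, 14.0, 14.0 and 1.87 in vehicle, and 14.1, 8.79 and 5.31 in Sfrp2 libraries. The lowest pre-MI library was above every later one. Acadl fell by 2.09 ± 0.44 on the log2 scale in the Sfrp2 group (limma adjusted p = 0.00390). Acadm, the medium-chain enzyme at chr3:153922357-153944632, read 13.2, 17.9 and 6.82 before MI, 6.45 and 8.03 at day 1, 4.67, 7.31 and 3.74 in vehicle, and 4.23, 4.39 and 4.09 in Sfrp2 libraries. Pre-MI replicate 3 lay among the day 1 and vehicle values, while the Sfrp2 libraries were close together and below all pre-MI libraries. Acadm fell by 1.29 ± 0.40 on the log2 scale in the Sfrp2 group (limma adjusted p = 0.0233). That call rested on 6 to 14 reads a library, and it was lost in 5 of 6 fits that left out 1 library, all but the one without pre-MI replicate 3, with adjusted p up to 0.0824.

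The trifunctional protein carries long-chain hydratase and 3-hydroxyacyl-CoA dehydrogenase activity on its alpha subunit and thiolase activity on its beta subunit. Hadha, at chr5:30118304-30155162 on the minus strand, read 30.3, 19.7 and 60.2 before MI, 11.3 and 6.89 at day 1, 17.1, 15.8 and 7.48 in vehicle, and 11.3, 14.4 and 15.9 in Sfrp2 libraries. Every later library was below every pre-MI one, and the pre-MI libraries themselves spread widely. Hadha fell by 1.21 ± 0.42 on the log2 scale in the Sfrp2 group (limma adjusted p = 0.0350), a call lost in 5 of 6 fits that left out 1 library, all but the one without pre-MI replicate 2, with adjusted p up to 0.128. Hadhb, at chr5:30155248-30184593 on the plus strand, read 7.57, 12.5 and 2.27 before MI, 6.45 and 12.6 at day 1, 10.1, 7.31 and 33.7 in vehicle, and 5.63, 12.6 and 13.1 in Sfrp2 libraries. The groups overlapped, and vehicle replicate 3 was far above the rest. The log2 difference of Hadhb from pre-MI in the Sfrp2 group was 0.58 ± 0.57, with an interval from -0.73 to 1.89 and a limma adjusted p of 0.405. Hadha reads per Hadhb read were 4.0, 1.57 and 26.5 before MI, 1.75 and 0.545 at day 1, 1.69, 2.17 and 0.222 in vehicle, and 2.0, 1.15 and 1.22 in Sfrp2 libraries. The ratio of the neighbouring genes thus overlapped between groups, and the 26.5 rested on 2 Hadhb reads.

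Acaa2, the mitochondrial 3-ketoacyl-CoA thiolase at chr18:74779197-74806208 on the plus strand, read 20.8, 44.8 and 29.5 before MI. It read 12.9 and 14.9 at day 1, 4.67, 14.0 and 0 in vehicle, and 4.93, 2.51 and 6.95 in Sfrp2 libraries. No later library reached the lowest pre-MI value, and the Sfrp2 libraries were below both day 1 libraries. Vehicle replicate 3 had no read, which at its depth allows a value of up to 5.61. Acaa2 fell by 2.51 ± 0.42 on the log2 scale in the Sfrp2 group (limma adjusted p = 0.00137).

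**Figure D1:**
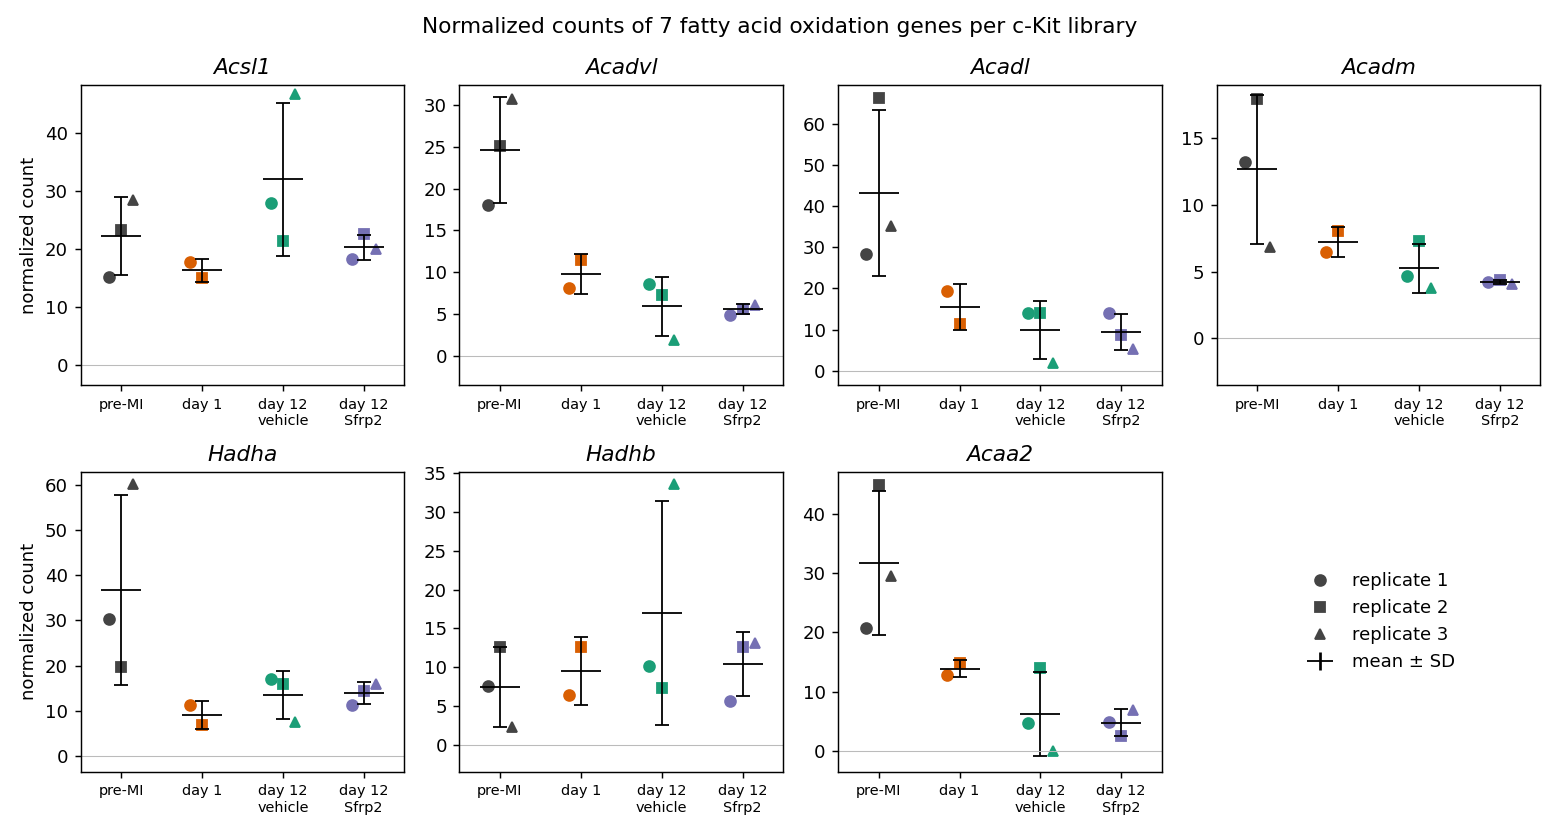
Normalized counts of the 7 genes in the 11 c-Kit libraries, 1 panel a gene with its own axis; symbols are replicates and bars the mean ± SD of a group. Acadvl, Acadl, Hadha and Acaa2 are higher in all 3 pre-MI libraries than in any later library, while Acsl1 and Hadhb overlap between groups.

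As a group, 5 of the 7 enzymes were lower in day 12 Sfrp2 cells than before MI, against 8.82% of all genes tested called lower and 48.8% called higher. Among the 3733 genes whose mean fell within the range of the enzymes' own means, 15.3% were called lower. Because the enzymes were chosen with earlier results of these data known, setting their count beside these shares is a description, not independent support. The 5 were Acadvl, Acadl, Acadm, Hadha and Acaa2, and the median log2 difference over the 7 was -1.29, against -0.06 over genes in that range and 1.27 over all genes. The all-gene median moved with the scaling, from 1.01 with reads scaled outside mitochondrially encoded genes to 1.45 after centring on the median, and the 5 enzymes had negative differences under each scaling, with Hadha short of the threshold after centring (limma adjusted p = 0.0518). The 5 were also lower in every Sfrp2 library than in every pre-MI library, as were 11.5% of all genes and 22.3% of those in the range of the enzymes' means. The fit of all c-Kit libraries called 3 of them, Acadvl, Acadl and Acaa2, against 4.92% of all genes called lower. In the authors' deposited table Acadm was not called (adjusted p = 0.0685). Acadvl, Acadl and Acaa2 passed the threshold in every alternative run in this comparison that tested them, leaving out each library included.

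At day 1, 0 of the 7 passed limma's threshold against pre-MI, where 2.65% of all genes were called lower and 21.3% higher. The log2 differences were -1.24 ± 0.33 for Acadvl (limma adjusted p = 0.0553), -1.38 ± 0.45 for Acadl (0.0961), -1.79 ± 0.54 for Hadha (0.0761), -1.07 ± 0.37 for Acaa2 (0.108), -0.64 ± 0.46 for Acadm and 0.48 ± 0.72 for Hadhb. Of these, 4 had unadjusted p under 0.05, and the same 4 were lower in both day 1 libraries than in every pre-MI library, as were 10.4% of all genes and 22.8% of those in the range of the enzymes' means. On recovered reads, edgeR's quasi-likelihood test called Acadvl, Acadl, Hadha and Acaa2 lower, against 4.35% of all genes, and DESeq2 called Hadha lower, against 1.97%.

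In day 12 vehicle cells, 0 of the 7 passed limma's threshold against pre-MI, and neither did any other gene (0% called lower), although 5150 genes had an unadjusted p under 0.05. The log2 differences were -2.03 ± 0.61 for Acadvl (limma adjusted p = 0.0794), -2.26 ± 0.70 for Acadl (0.0826), -2.83 ± 0.88 for Acaa2 (0.0827), -1.31 ± 0.56 for Hadha (0.137), -1.08 ± 0.60 for Acadm and 1.03 ± 0.74 for Hadhb. Acadvl, Acadl, Hadha and Acaa2 were below pre-MI in every vehicle library, as were 7.08% of all genes and 12.9% of those in the range of the enzymes' means. In the authors' deposited table Acadvl, Acadl and Acaa2 were past 0.05, with adjusted p of 0.0214, 0.0224 and 0.0264, against 2.65% of all genes called lower there. The fit of all c-Kit libraries also called these 3, against 4.3% of all genes. DESeq2 and edgeR on recovered reads called 0 of the 7, with 0.927% and 0.236% of all genes lower, and the limma count was 2 of 7 without vehicle replicate 2, where 6421 of all 15223 genes were called, and 0 without vehicle replicate 3.

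The pre-MI libraries are shared by these 3 comparisons, so the differences above are not independent of each other. Between the day 12 groups, 0 of the 7 enzymes passed the threshold, and 0% of all genes were called in either direction with 219 at an unadjusted p under 0.05; DESeq2 and edgeR also called 0. The log2 differences of Sfrp2 from vehicle ran from -0.56 ± 0.46 for Acsl1 to 0.32 ± 0.96 for Acaa2, each with a limma adjusted p of 1.00. Their 95% intervals were wide, reaching from -1.82 to 2.46 for Acaa2 and from -1.03 to 1.24 for Hadha. Values of each enzyme overlapped between these groups. The signs of Acadvl, Acadl, Hadha, Hadhb and Acaa2 turned when vehicle replicate 3 was left out, to -0.44, -0.62, -0.24, 0.17 and -0.75.

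Against day 12 Sfrp2 cells, day 1 cells had 0 of 7 enzymes past the threshold, where 0.145% of all genes were called higher and 0% lower. Acaa2 differed most, by 1.44 ± 0.47 on the log2 scale (limma adjusted p = 0.128), and was higher in both day 1 libraries than in every Sfrp2 library. Acadvl and Acadm were likewise higher in both day 1 libraries than in every Sfrp2 library, as were 10.6% of all genes. Acsl1 was lower in both day 1 libraries than in every Sfrp2 library, as were 27.9% of all genes, and than in every vehicle library, as were 7.97%. Against day 12 vehicle cells, day 1 cells had 0 of 7 past the threshold, with 0% of all genes called and 171 at an unadjusted p under 0.05, and the same holds with edgeR, while DESeq2 called 1 gene.

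**Figure D2:**
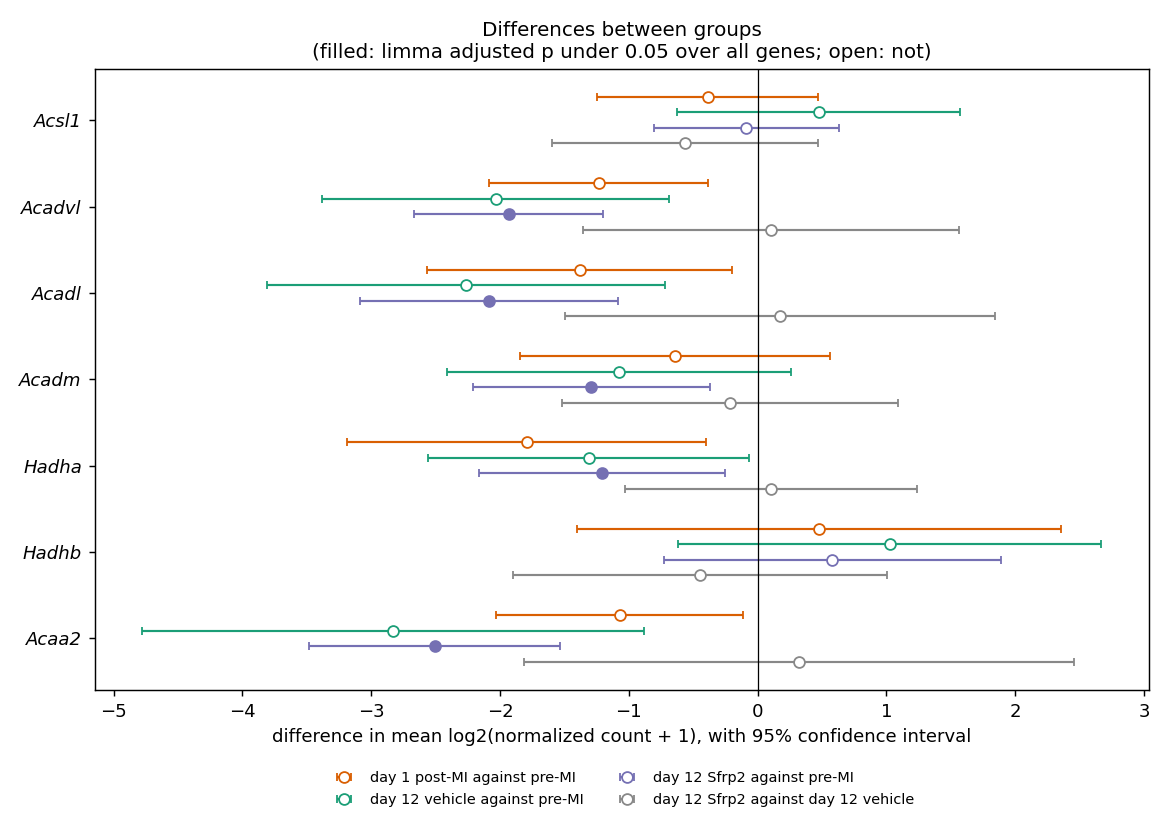
Difference between group means of log2(normalized count + 1) for each gene, with its 95% confidence interval, in 4 comparisons told apart by colour; filled points passed limma's adjusted p of 0.05. Filled points are the 5 falls in Sfrp2 cells against pre-MI, and every interval of Sfrp2 against vehicle includes 0.

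Levels between enzymes are comparable only per length, so normalized counts were divided by the kb of merged exons, from 1516 bases for Acaa2 to 10483 for Acsl1. Before MI the order of the mean level per exon kb was Acadl at 21.6 ± 10.1 (SD, n = 3), Acaa2 at 20.9 ± 8.01, Acadvl at 9.15 ± 2.37, Hadha at 4.21 ± 2.41, Acadm at 3.24 ± 1.43, Acsl1 at 2.13 ± 0.64 and Hadhb at 1.13 ± 0.78. Acadl and Acaa2 did not differ beyond their spread, nor did the neighbours from Hadha down to Hadhb. In Sfrp2 libraries Acadl was again first at 4.69 ± 2.20 and Acaa2 next at 3.16 ± 1.47, and all 7 means lay between 1.08 and 4.69 per exon kb.

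The later libraries also carried more background on this scale. All 7 enzymes were above the 95th percentile of sensory receptor genes in each pre-MI library. At day 1, 5 and 2 enzymes were, in vehicle libraries 4, 7 and 0, and in Sfrp2 libraries 4, 1 and 3. The sensory median scaled to each enzyme's exon length came, in Sfrp2 libraries, to 32.3%, 59.1% and 58.0% of the Acadm value. It came to 20.0% to 31.7% of the Acsl1 value, 27.0% to 40.2% for Hadha, 30.5% to 40.8% for Hadhb, 19.0% to 31.6% for Acadvl, 4.96% to 22.9% for Acadl and 10.7% to 40.1% for Acaa2. With this background subtracted, the log2 difference between Sfrp2 and pre-MI cells was -0.53 for Acsl1 (limma adjusted p = 0.209), 0.03 for Hadhb (0.981), -1.75 for Hadha (0.0188) and -2.06 for Acadm (0.0122), and the same 5 enzymes were called lower.

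**Figure D3:**
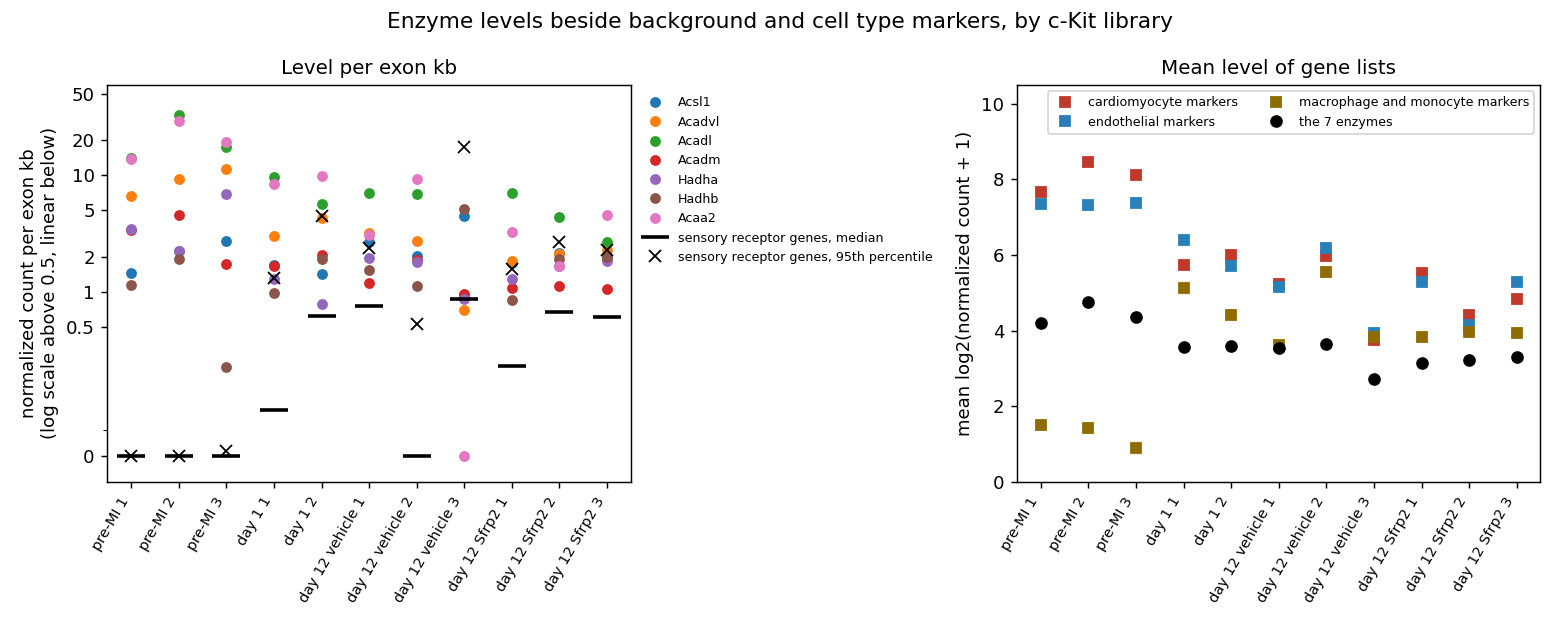
Left, level per exon kb of each enzyme by c-Kit library on an axis that is logarithmic above 0.5, with the median and 95th percentile of sensory receptor genes; right, mean log2(normalized count + 1) of the enzymes and of marker lists. The enzymes lie above the 95th percentile in all 3 pre-MI libraries and in vehicle replicate 2, and macrophage markers lie higher and cardiomyocyte and endothelial markers lower in each later library than in each pre-MI library.

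The enzymes varied unevenly among themselves. Over the 11 c-Kit libraries, Pearson's r of log2(normalized count + 1) was 0.917 between Acadvl and Acaa2, 0.898 between Acadvl and Acadl and 0.895 between Acadl and Acaa2. Acsl1 had r from -0.556 with Acaa2 to 0.391 with Hadhb, and Hadha and Hadhb had -0.689. These are descriptions of libraries that fall into pre-MI and later ones and share a size factor within each library.

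A mean of 50 or more was reached by 353 genes, and those most like the enzymes' mean log2 level over the 11 libraries were Tpm1 (r = 0.952), Myh6, Myl2, Pln, Nid1, Actc1, Tjp1, Nrp1, Kdr and Aplnr (r = 0.931). Myh6, Pln and Aplnr averaged 25.5, 26.5 and 18.7 after MI, so they passed this filter only through their pre-MI values. Genes with a mean of at least 50 in Sfrp2 and pre-MI libraries had a median log2 difference of -1.83. Of those called, 4.44% were higher. The filter thus favours genes that fell, and the likeness is a description only. Tpm1, Myh6, Myl2, Pln and Actc1 encode contractile or calcium-handling proteins of heart muscle, and Kdr and Nrp1 encode a VEGF receptor and its coreceptor. Myh6 averaged 331 normalized counts before MI and 14.5 in Sfrp2 libraries. The summed endothelial markers were 3641 to 3733 before MI, 1092 and 1636 at day 1, 189 to 1418 in vehicle and 322 to 864 in Sfrp2 libraries. Summed macrophage and monocyte markers ran the other way, from 14.8 to 28.7 before MI to 323 and 510 at day 1, 167 to 1310 in vehicle and 176 to 241 in Sfrp2 libraries. In the Sfrp2 group 9 of 10 cardiomyocyte and 10 of 10 endothelial markers were called lower, beside 8.82% of all genes. There 9 of 10 macrophage and monocyte and 6 of 6 lymphocyte markers were called higher, beside 48.8% of all genes. Of 7 adipocyte markers listed, 3 were in the tables. They were at 0 in every pre-MI library and summed to 7.36 to 17.6 in Sfrp2 libraries, on 1 to 12 reads each. Sensory receptor genes, the measure of background, had 6 to 10 reads before MI and 277 to 791 in Sfrp2 libraries. The part of these marker changes in the enzymes' fall was not tested.

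Other genes listed for mitochondrial fatty acid oxidation did not all follow the enzymes, and some, such as Cpt1c and Ucp3, are not enzymes of the pathway. This list and those below were also chosen with earlier results of these data known, so their counts are descriptions. Over all genes in Sfrp2 cells against pre-MI, 8.82% were called lower and 48.8% higher, and the median log2 difference was 1.27. Of the 29 listed genes found in the tables, 7 were lower and 7 higher in this comparison, and their median was -0.56. Those that fell included Etfb, an electron transfer flavoprotein subunit that takes electrons from the acyl-CoA dehydrogenases, from 22.8 ± 6.88 to 5.39 ± 0.90 normalized counts (n = 3 each; log2 difference -1.87, limma adjusted p = 0.00174). Crat, carnitine acetyltransferase, fell from 37.9 ± 11.5 to 10.45 ± 3.52, and Pdk4, a kinase that restrains pyruvate oxidation, from 41.0 ± 9.63 to 14.6 ± 3.82. Etfa, Acads, Acot13 and Acss1, named after their values were seen, also fell. Those that rose, named likewise, were Acad9, Acad10, Acad11, Acad12, Acsl6, Cpt1c and Ucp3. Whether these rises exceeded the background of the later libraries was not tested. At day 1, Crat was called lower (log2 difference -1.84, limma adjusted p = 0.0352) and 2 of the 29 higher, beside 2.65% and 21.3% of all genes. In the carnitine shuttle, Cpt1a averaged 17.3 ± 6.41 before MI and 9.57 ± 4.02 in Sfrp2 libraries (limma adjusted p = 0.126), Cpt2 averaged 6.34 and 4.20 (0.294), and the carrier Slc25a20 averaged 6.33 and 3.03 (0.154).

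Of 19 genes of fatty acid uptake, binding and release, 8 were called lower and 3 higher in the Sfrp2 group. Over all genes the shares were 8.82% and 48.8%. Cd36, a fatty acid transporter of the plasma membrane, fell from 1160 ± 164 to 181 ± 90.7 normalized counts (log2 difference -2.83, limma adjusted p = 9.4e-04). Fabp3, the heart fatty acid-binding protein, fell from 42.1 ± 9.91 to 5.67 ± 3.02. Mgll, monoacylglycerol lipase, and Gpihbp1, which anchors lipoprotein lipase on capillary endothelium, fell too, with log2 differences of -2.62 and -2.44. At day 1, 4 of the 19, Cd36, Fabp3, Fabp4 and Mgll, were called lower, beside 2.65% of all genes. Slc27a2 was called higher, beside 21.3% of all genes. The log2 differences at day 1 were -1.59 for Cd36 (limma adjusted p = 0.0326) and -2.05 for Fabp3 (0.00926).

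The list of citric acid cycle genes, which oxidise the acetyl-CoA that the pathway makes, also held pyruvate dehydrogenase genes such as Pdha1 and Pdhb. Of its 21 genes in the tables, 14 were called lower in the Sfrp2 group, beside 8.82% of all genes. At day 1, 10 of 21 were called lower, beside 2.65%. Pdha1 and Pdhb were among them both times, and 0 were called higher. Cs, citrate synthase, fell from 75.2 ± 12.7 to 16.7 ± 5.11, and Idh2, an isocitrate dehydrogenase, from 45.1 ± 11.04 to 7.26 ± 3.57 normalized counts. The list's median log2 difference in the Sfrp2 group was -1.37, near the -1.29 of the enzymes.

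Among 17 regulators of the pathway, 2 were lower and 4 higher in the Sfrp2 group, beside 8.82% and 48.8% of all genes. Ppara, which encodes PPAR-alpha, averaged 1.23 before MI and 4.37 in Sfrp2 libraries (limma adjusted p = 0.173). Ppargc1a, which encodes PGC-1-alpha, averaged 16.6 ± 8.62 and 15.7 ± 4.45 (0.928). Nrf1, a transcription factor of mitochondrial biogenesis, rose from 4.69 to 21.7, Nrip1, a corepressor, rose from 12.6 to 25.2, and Ncor1, another corepressor, fell from 62.0 to 35.8 normalized counts.

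Of 12 genes listed for peroxisomal beta-oxidation, 4 were higher, Abcd2, Acaa1a, Amacr and Pecr. Ech1, whose product is also found in mitochondria, was lower, from 35.7 ± 3.79 to 6.09 ± 1.68 normalized counts. Beside the 48.8% of all genes called higher and 8.82% lower in this comparison, fatty acid synthesis had 5 of 12 higher and 2 lower. Those higher were Acaca, Elovl6, Fasn, Oxsm and Scd1, and Elovl5, a fatty acid elongase, fell from 38.0 to 18.9 normalized counts. Glycolysis had 5 of 20 higher (Aldoc, Eno1, Hk3, Pfkp and Slc2a4) and 6 lower. Among the 6, Eno3, Aldoa and Ldhb fell with log2 differences of -2.22, -2.05 and -1.83. Of 4 ketone body genes, 2 were higher, Bdh1 and Slc16a1. Oxct1, which activates acetoacetate for use as fuel, fell by 1.51 on the log2 scale. The genes named as higher in these lists were named after their values were seen. Branched-chain acyl-CoA oxidation, a neighbouring mitochondrial pathway with its own dehydrogenases, had 6 of 14 higher, a share near that of all genes, and 0 lower, and Mccc1 rose from 7.59 to 21.0.

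**Figure D4:**
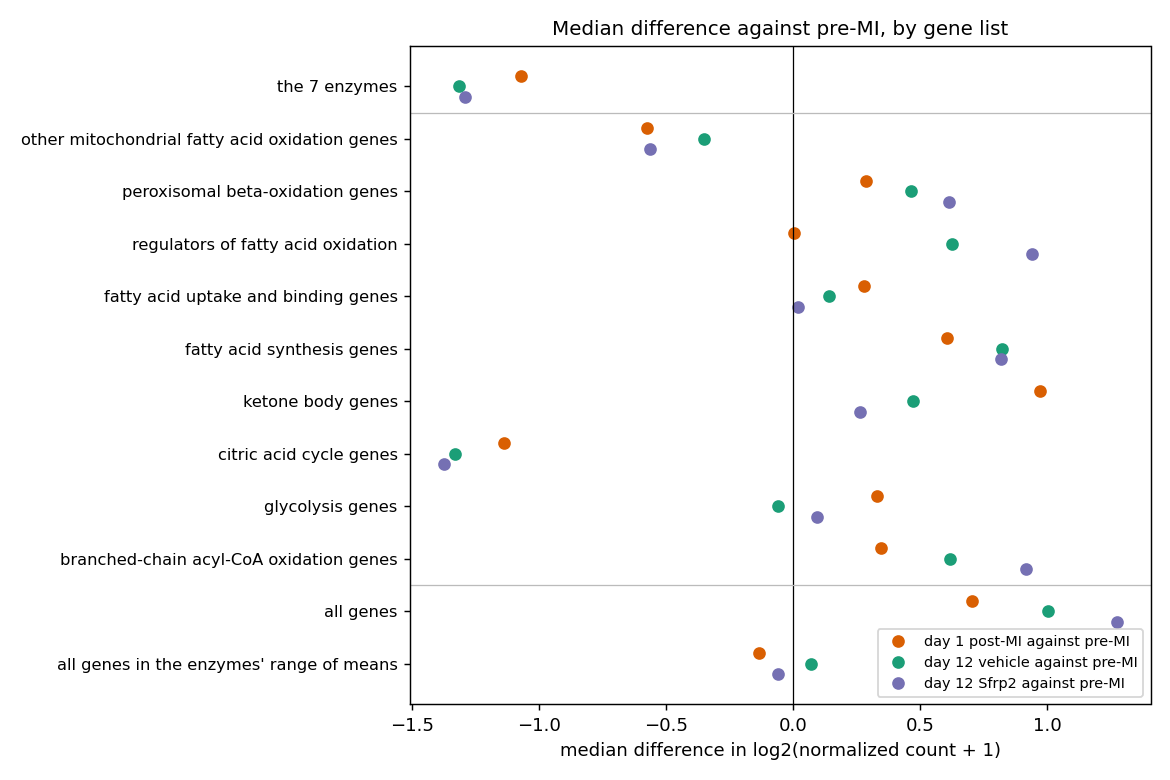
Median difference in log2(normalized count + 1) from pre-MI for the 7 enzymes, 9 pathway lists, all genes and all genes in the range of the enzymes' means, with 1 colour per comparison. The enzymes and the citric acid cycle list, which includes pyruvate dehydrogenase genes, lie lowest in all 3 comparisons. The median over all genes lies above 0 in each. Over genes in the enzymes' range it is -0.13 at day 1, 0.07 in vehicle and -0.06 in Sfrp2 cells.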

How the data were processed

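RNA from 11 c-Kit libraries and 1 cardiomyocyte library had been amplified with a whole-transcriptome kit. Per the labels' protocols, Trim Galore and Cutadapt trimmed the reads (at least 20 nt kept), which were then aligned with STAR to GRCm38, kept where unique, counted with HTSeq, limited to genes reaching 10 reads in some library and normalized with DESeq2. No versions of these tools are given in the sources used here. Deposited tables hold, per the file headers and values, a signal of counts divided by a size factor; the authors' log2 fold changes, test statistics (a score) and p-values stand beside it in the deposited tables. Columns that say day 14 were taken as day 12, after the labels. Whole reads were recovered for 100% of values (tolerance 0.001).

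limma 3.58.1 (R 4.3.3) with a trended variance was fitted to log2(value + 1) of the 2 groups compared, adjusted by Benjamini-Hochberg over 15223 genes, threshold 0.05; this scale understates changes of low genes. The limma fit was also run on simulated data, with an outcome that is not reported here. Alternatives included DESeq2 1.42.0 and edgeR 4.0.16 on recovered reads, other scalings, filters, pseudocounts of 0.5 and 5, library weights and each library left out. Reads carry no molecular identifiers, so a floor of 3 reads covers counting error only. Positions and merged exon lengths, found for 98.9% of genes, come from GENCODE M21 on GRCm38. Sensory receptor genes numbered 102, of which 99 had a length.

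The members and lists were chosen with earlier results of these data known. Named genes were the 7 enzymes; per pathway list the 3 with the smallest p in Sfrp2 against pre-MI averaging 20 or more in the higher group; Ppara, Ppargc1a, Cpt1a, Cpt2, Slc25a20 and Cd36; the first 3 markers of a list; and the 10 genes most like the enzymes' mean. Some genes that this rule picks are not reported here.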

Additional observations from a re-analysis of the deposited data

Results flagged for a closer look

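Acsl1 read 48.7 normalized counts (22 reads) in the library labelled cardiomyocytes, which entered no comparison, above its 15.1 to 28.4 in the pre-MI c-Kit libraries. Per exon kb Acsl1 was at 4.65 there, below the 95th percentile of sensory receptor genes at 13.2, with 80.8% of those genes below it. That library has no replicate, and its cardiomyocyte markers go against its label.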

How the results depend on the processing

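The count of enzymes called lower in Sfrp2 cells against pre-MI was 5, and 3 in the fit of all c-Kit libraries, 4 with DESeq2 and in the authors' deposited table (Acadm lost), 4 after centring (Hadha lost) and 3 to 4 when 1 library was left out; Acadvl, Acadl and Acaa2 were called in each of these fits, and Acadm and Hadha were lost in some. At day 1 the count was 0, but 2 when genes averaging below 10 were left out (Acadl, Hadha), 1 with DESeq2, 4 with edgeR and 2 with reads scaled outside mitochondrially encoded genes. In vehicle it was 0, but 3 in the fit of all c-Kit libraries, in the authors' deposited table and with a weight per library (8282 of all 15223 genes called with weights), and 0 to 2 when 1 library was left out. Between Sfrp2 and vehicle it was 0, and 1 (Acadl) with a weight per library, where 2185 of all 15223 genes were called. The causes were not tested. No enzyme had a mean of at least 50, so that filter gave no value.

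Replicate numbers did not pair the libraries: same-numbered deviations correlated from -0.63 to 0.24. With the replicate number as a block, 0 enzymes were called at day 1, 2 in vehicle (Acadl, Acaa2), 5 in Sfrp2 against pre-MI and 0 in the other comparisons, with 10, 1501 and 9217 of all genes called in the first 3, and Hadhb at day 1 read -0.10, and -0.10 to 0.93 with 1 library left out.

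Of 563 enzyme values under alternatives, 32 changed sign, each of a difference that was not called as reported; Acadl in Sfrp2 against vehicle was called, with the opposite sign, with a weight per library. Acsl1 in vehicle read -0.12 with reads scaled outside mitochondrially encoded genes; in Sfrp2 cells it read 0.091 when centred, 0.0046 with weights, 0.062 with reads scaled also outside large genes (chosen after seeing the data) and -0.33 to 0.10 with 1 library left out. In Sfrp2 against vehicle, values for Acadvl, Acadl, Hadha and Acaa2 were -0.41, -0.41, -0.24 and -0.89 with DESeq2, -0.29, -0.29, -0.10 and -0.74 with edgeR, and -0.21, -0.21, -0.0065 and -0.52 in the authors' deposited table. With weights, Acadvl, Acadl, Hadha and Hadhb read -0.42, -1.01, -0.13 and 0.22. Acaa2 read -0.015 with a pseudocount of 5 and Acadm 0.012 with the added scaling. With 1 library left out, Acadvl ran from -0.44 to 0.42, Acadl from -0.62 to 0.57, Acadm from -0.39 to 0.014, Hadha from -0.24 to 0.30, Hadhb from -0.86 to 0.17 and Acaa2 from -0.75 to 1.205. Depth limits all of this: the enzymes had 0 to 53 reads each per library.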
